A study of Mus musculus with 10 samples.

Results

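The 10 genes described here encode proteins of the nuclear envelope: the SUN proteins (Sun1, Sun2, Sun3, Sun5 and Spag4, the gene of SUN4), the nesprins (Syne1 and Syne2) and the lamins (Lmna, Lmnb1 and Lmnb2). They were chosen by name, and all 10 were found among the 28125 genes of the scRNA-seq matrix and among the 30657 nuclear genes of the scATAC-seq matrix. SUN proteins span the inner nuclear membrane and bind the KASH domain of nesprins in the outer membrane, and the pair, known as the LINC complex, couples the nucleus to the cytoskeleton. Lamins form the meshwork under the inner membrane. In meiotic prophase SUN1 holds telomeres at the envelope together with the KASH protein KASH5, and in spermatids SUN3 and SUN4 link the nucleus to the manchette while SUN5 sits at the junction of head and tail.

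Nuclei of whole testes were read by simultaneous scRNA-seq and scATAC-seq on the BD Rhapsody system. The donors were wild-type mice at 11, 17 and 25 dpp (days post partum), 8-week-old Cre/+ mice, the controls that carry Stra8-Cre, and 8-week-old Nfya-CKO mice (Nfya fl/fl; Stra8-Cre), in which Cre removes exons of the transcription factor gene Nfya in germ cells. The background was C57BL/6J. Stra8-Cre is a knock-in that is active in premeiotic germ cells, so somatic cells of Nfya-CKO testes keep Nfya, and every later germ cell population came from wild-type and Cre/+ testes, apart from 4 cells each in eL/L/Z and D and a few without a library name. Each of the 5 conditions was 1 library per assay, so no difference below has a replicate check, no test was run, and neighbouring levels cannot be judged against a spread between animals.

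RNA levels are the authors' mean per population, pooled over libraries, as UMIs (unique molecular identifiers, 1 per captured transcript) per 10000 UMIs of a cell. The study divided the cells into 13 populations. The 9 germ cell populations were undifferentiated spermatogonia (undiff. SpG, 1292 cells), differentiating spermatogonia (diff. SpG, 927), preleptotene (pL, 1761), early leptotene to zygotene (eL/L/Z, 5705), leptotene to early pachytene (L/Z/eP, 8107), middle and late pachytene (mP/lP, 5055) and diplotene spermatocytes (D, 4145), round spermatids (RS, 7325) and elongating spermatids (ES, 1195). The others were SpG of the library labelled Nfya-CKO (491), Sertoli cells (3265), other somatic cells (5883) and cells of unknown type (99). Median depth ranged from 1525 UMIs per cell in other somatic cells to 18361 in SpG Nfya-CKO. Most populations drew chiefly on a single library: 84.5% of diff. SpG, 77.0% of RS and 99.6% of ES were Cre/+ cells, 93.5% of L/Z/eP came from 25 dpp and 87.8% of Sertoli cells from 11 dpp. Stage and library can therefore not be told apart for these.

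Libraries shared cell barcodes in scRNA-seq. Of 39674 barcodes, 5030 (12.7%) occurred in more than 1 library, against 982 of 342825 (0.286%) in scATAC-seq. The Cre/+ library and the library labelled Nfya-CKO shared 3813, which is 74.0% of the cells of the latter, with a median of 14415 UMIs in the deeper copy and 1174 in the shallower one. Cells with a shared barcode made up 70.0% of other somatic cells, 59.7% of ES, 49.1% of diff. SpG, 35.6% of SpG Nfya-CKO and 32.5% of undiff. SpG, but 8.52% of RS and 3.30% of L/Z/eP. The matrices hold 1 pooled value per population, so the results could not be given without these cells, and the part of shared barcodes in them was not tested.

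Some marker genes went against the names of populations in ways that touch the genes described here, beside markers of the named type. Of the latter, Zbtb16, Gfra1 and Uchl1 summed to 16.4 in SpG Nfya-CKO, 15.7 in undiff. SpG and 5.66 in other somatic cells. Zbtb16 was lower in SpG Nfya-CKO (4.15 against 8.7), Gfra1 near (1.20 against 1.08) and Uchl1 higher (11.0 against 5.885). Uchl1 was at 4.87 in other somatic cells. Kit and Dmrtb1 summed to 2.61 in diff. SpG, 0.681 in undiff. SpG and 3.11 in pL. Prm1, Prm2, Tnp1 and Tnp2, which package sperm chromatin, summed to 118 UMIs per 10000 in ES and 29.5 in RS, and to 9.88 in diff. SpG against 0.511 in undiff. SpG and 0.0149 in pL. All 5 Leydig cell markers (Cyp17a1, Cyp11a1, Star, Insl3, Hsd3b1) were detected in SpG Nfya-CKO and summed to 49.2 there, against 0.209 in undiff. SpG and 218 in other somatic cells. The 6 Sertoli cell markers summed to 37.2 in ES against 3.84 in RS, although Amh was at or under the level of 3 UMIs in ES. They summed to 61.0 in Sertoli cells and to more, 102, in other somatic cells, and to 25.1 in SpG Nfya-CKO against 3.93 in undiff. SpG. Clu alone gave 31.3 in ES, 34.1 in Sertoli cells, 91.5 in other somatic cells and 22.8 in SpG Nfya-CKO. Sox9 (10.7 against 3.54), Wt1 (10.1 against 3.24), Gata4 (4.97 against 2.97) and Amh (0.927 against 0.032) were higher in Sertoli than in other somatic cells. Rhox5 (0.222 against 0.239) was not. Nfya RNA itself went against the label Nfya-CKO: it was at 1.11 in SpG Nfya-CKO, 0.456 in undiff. SpG, 0.667 in diff. SpG and 0.82 in other somatic cells. For the protein, the study reported depletion of NFYA in germ cells of these mice by western blot and immunohistochemistry. A value per gene does not show which exons were read, and directions drawn from the library labelled Nfya-CKO rest on that label. The library had 0 cells in diff. SpG, pL, L/Z/eP, mP/lP, RS and ES, and 4 each in eL/L/Z and D.

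**Figure D1:**
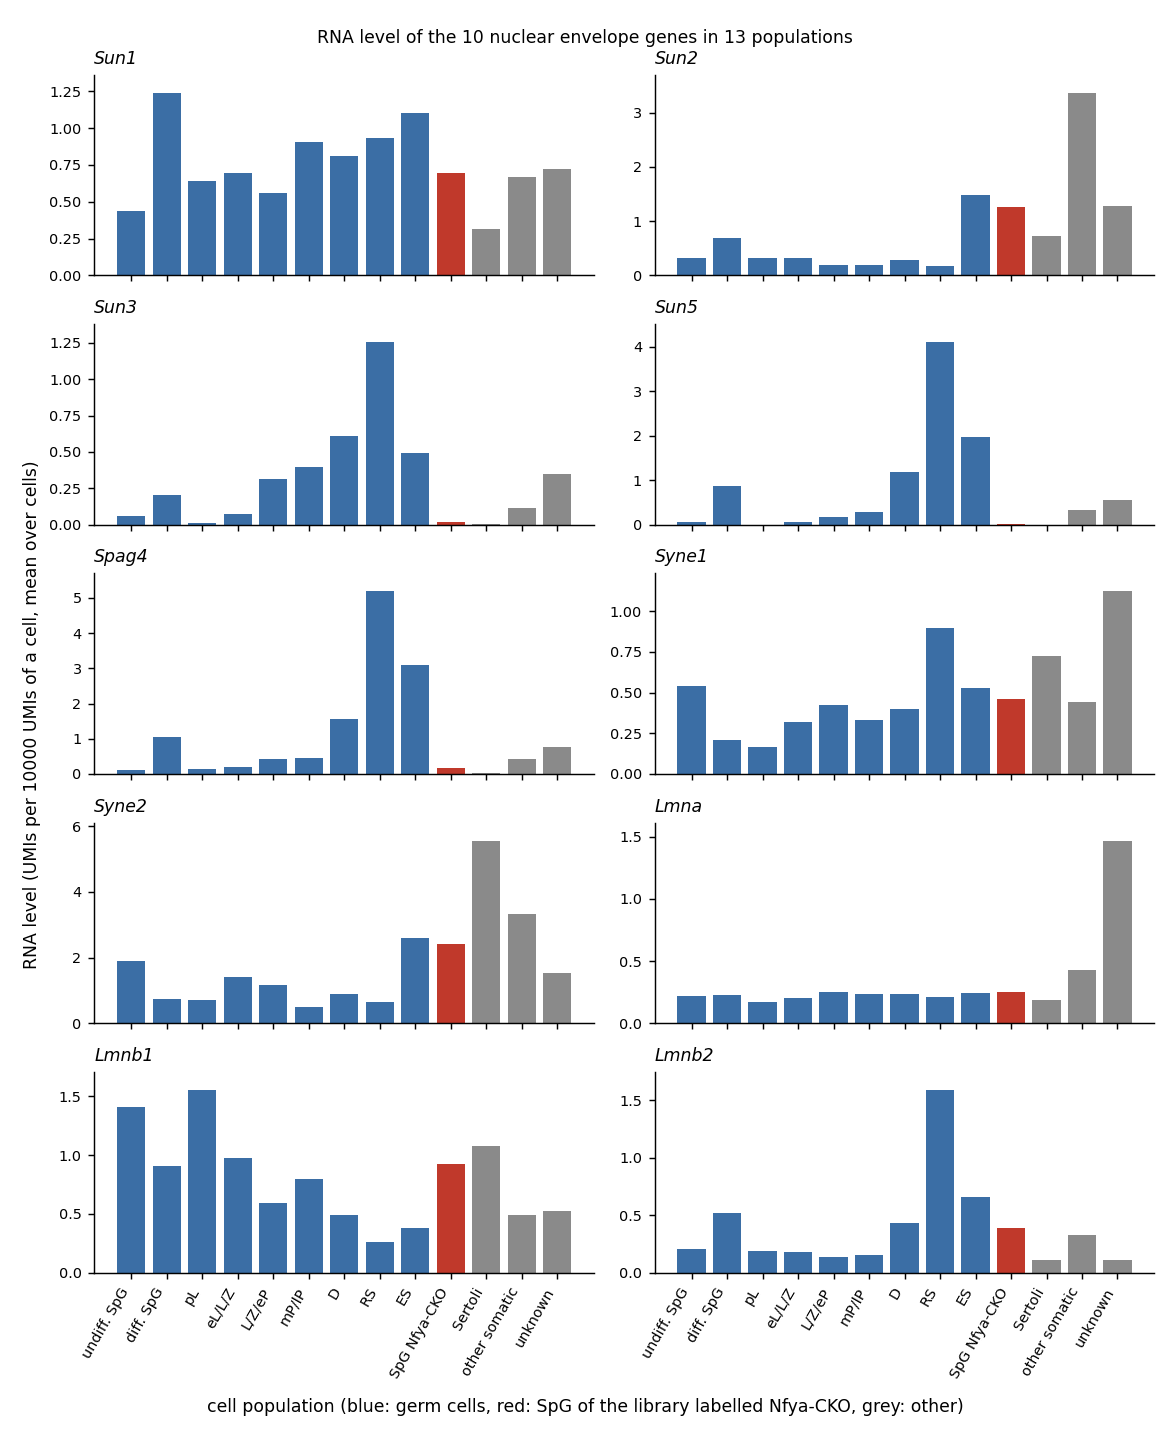
RNA level of each of the 10 genes (y axis, UMIs per 10000 UMIs of a cell, mean over cells, own scale per gene) in the 13 populations (x axis), 1 pooled value per bar and no error bars because replicates are lacking. Sun3, Sun5, Spag4 and Lmnb2 were highest in RS, Sun2 in other somatic cells, Syne2 in Sertoli cells, Lmna in the unknown cells and Lmnb1 in pL.

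The SUN genes of spermatids, Sun3, Sun5 and Spag4, and the lamin gene Lmnb2, which also encodes the spermatid lamin B3, all peaked in RS. To show what lies before their start sites, the 150 bases upstream are given 5′ to 3′ on the strand of the gene, from RefSeq on GRCm38.p6, the build called mm10, with matches to 3 searched motifs in capitals. Sun3 lies on the minus strand and the stretch is chr11:9048992-9049141, before the start of isoform b. Sun5 is on the minus strand at chr2:153871085-153871234 and Spag4 on the plus strand at chr2:156065063-156065212. The Lmnb2 stretch, minus strand at chr10:80906413-80906562, lies inside the gene before the start of lamin-B2 isoform 2.
Sun3: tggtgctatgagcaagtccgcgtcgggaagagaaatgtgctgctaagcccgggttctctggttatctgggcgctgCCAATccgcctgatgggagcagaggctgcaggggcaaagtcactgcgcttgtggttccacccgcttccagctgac
Sun5: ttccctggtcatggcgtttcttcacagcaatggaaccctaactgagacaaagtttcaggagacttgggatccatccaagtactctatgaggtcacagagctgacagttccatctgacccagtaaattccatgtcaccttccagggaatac
Spag4: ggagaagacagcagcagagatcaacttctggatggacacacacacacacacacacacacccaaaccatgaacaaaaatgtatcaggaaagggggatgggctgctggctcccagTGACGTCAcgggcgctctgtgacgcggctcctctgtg
Lmnb2: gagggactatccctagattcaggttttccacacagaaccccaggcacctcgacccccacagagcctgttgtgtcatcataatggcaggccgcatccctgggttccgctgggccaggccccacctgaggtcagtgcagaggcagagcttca

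The motifs were CCAAT, the box that NF-Y binds, CNCCTCAG, the motif of STRA8 and MEIOSIN, and TGACGTCA, the cyclic AMP response element, each searched on both strands from 250 bases before to 50 bases after a start. Promoter entries were matched for 9 of the 10 genes, all but Lmnb1, with 15 promoters. Spag4 was the only one of the 9 genes searched with TGACGTCA, 37 bases before its start, and 1.79% of all 32851 promoters held that motif. The Sun3 stretch holds a CCAAT 75 bases before the start. CCAAT stood in 5 of the 15 promoters, against 37.4% of all promoters, and CNCCTCAG in 2 of 15, against 7.94%. The genes with CCAAT were Sun1, Sun2, Sun3 and Lmna, and those with CNCCTCAG were Sun1 and Lmna. In Sun1, CCAAT lay 97 and 15 bases before the first start and 209 before that of isoform 5. Its CNCCTCAG lay 42 bases after the first start. A match describes letters in the window and not binding.

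Sun5 RNA was at 0.0639 UMIs per 10000 in undiff. SpG, 0.874 in diff. SpG, 0.00146 in pL (under the level of 3 UMIs), 0.0579 in eL/L/Z, 0.179 in L/Z/eP, 0.280 in mP/lP, 1.19 in D, 4.11 in RS and 1.97 in ES. From pL the level was higher at each stage up to RS, and lower again in ES. In Sertoli cells it was 0.000884, just above the level of 3 UMIs there. Spag4 RNA was at 0.10, 1.04, 0.128, 0.211, 0.438, 0.453, 1.55, 5.18 and 3.09 in the same order of populations, and 0.0220 in Sertoli cells. Its profile over the 12 named populations was close to that of Sun5, with r = 0.98 on the log2(value + 0.1) scale. This and every r below describe points that share libraries and depth.

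Sun3 RNA was at 0.0613 in undiff. SpG, 0.201 in diff. SpG, 0.00803 in pL, 0.0708 in eL/L/Z, 0.316 in L/Z/eP, 0.400 in mP/lP, 0.613 in D, 1.26 in RS and 0.491 in ES. The scale of value + 0.1 was used for all RNA calls below. On it, Sun3 was the only one of the 10 genes at least 2-fold higher in L/Z/eP than in eL/L/Z. With a pseudocount of 0.01 the log2 ratios were 2.01 for Sun3, 1.48 for Sun5 and 1.02 for Spag4, all past 2-fold. L/Z/eP came almost wholly from 25 dpp, while eL/L/Z came chiefly from 11, 17 and 25 dpp, with 74 Cre/+ cells. Lmnb2 was at 0.204 in undiff. SpG and 0.518 in diff. SpG, stayed between 0.139 and 0.185 from pL to mP/lP, and was 0.436 in D, 1.59 in RS and 0.661 in ES. UMIs were counted per gene, so lamin B2 and lamin B3 transcripts are summed here, as are lamins A, C and C2 for Lmna.

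Steps between neighbouring populations were called by size alone, at least 2-fold on the scale of value + 0.1, which lowers the fold of weak genes. From mP/lP to D, 3 of the 10 genes were higher (Sun5, Spag4, Lmnb2) and 0 lower, against 4.92% and 0.184% of all 15250 genes with a mean of at least 0.05. From D to RS the same 3 were higher and 0 lower, against 10.6% and 3.34% of all genes. The log2 ratios from D to RS were 1.71 for Sun5, 1.68 for Spag4 and 1.65 for Lmnb2, while all genes had a median of -0.17. Syne1 (0.99) and Sun3 (0.93) stood just under the threshold of 2-fold. From RS to ES, 3 were lower (Sun3, Sun5, Lmnb2), against 10% of all genes, and 2 higher (Sun2, Syne2), against 10.1%. Spag4, with a log2 ratio of -0.72, was short of the threshold. Of the 9 germ cell populations, RS held the highest level of 5 of the 10 genes, Syne1 included, where 18.2% of all genes peaked in RS. With a pseudocount of 1 in place of 0.1, 0 of the 10 genes were called from mP/lP to D, Lmnb2 (0.85) was no longer called from D to RS, and the lower calls of Sun3 (-0.60), Sun5 (-0.78) and Lmnb2 (-0.64) from RS to ES were lost.

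**Figure D2:**
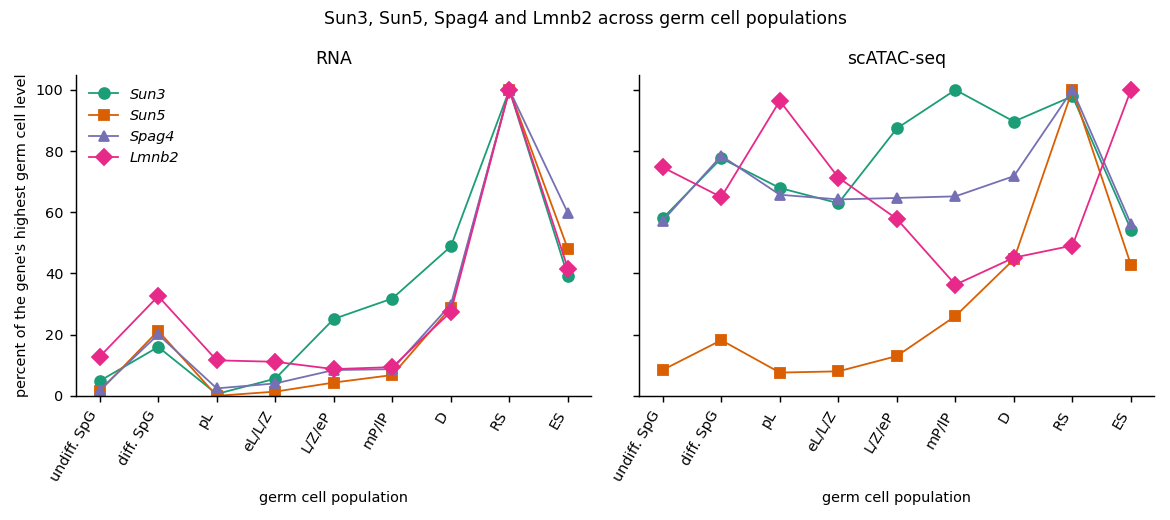
RNA level (left) and scATAC-seq signal (right) of Sun3, Sun5, Spag4 and Lmnb2 in the 9 germ cell populations, each as percent of the gene's own highest germ cell level, 1 pooled value per point. RNA of all 4 was highest in RS and had a smaller peak in diff. SpG, while the scATAC-seq signal peaked in RS for Sun5 and Spag4, in mP/lP for Sun3 and in ES for Lmnb2.

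The scATAC-seq signal is the authors' pooled value per gene, scaled here to 1000000 over nuclear genes. The study's methods define promoter accessibility as mean coverage close to the TSS (transcription start site), but do not say whether this matrix holds it, so the region behind each value is not known here. Sun5 had 3.52 in undiff. SpG, 7.55 in diff. SpG, 3.16 in pL, 3.33 in eL/L/Z, 5.40 in L/Z/eP, 10.8 in mP/lP, 18.5 in D, 41.5 in RS and 17.7 in ES. These values followed the RNA over the 12 named populations (r = 0.92), the highest such value among the 10 genes. Among the germ cell populations Spag4 varied less, from 58.5 in ES to 104 in RS, and Sun3 from 40.4 in ES to 74.3 in mP/lP. Over the 12 populations r with RNA was 0.69 for Spag4 and 0.57 for Sun3. Lmnb2 did not follow its RNA (r = -0.10): the signal was lowest in mP/lP, at 14.4, was 19.5 in RS and highest among germ cells in ES, at 39.7. ES rests on 124 scATAC-seq cells, against 4835 for RS.

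Calls of scATAC-seq signal used 1.5-fold on the scale of value + 1, over 30652 genes. Sun5 was the gene called higher from undiff. to diff. SpG (11.7% of all genes), from L/Z/eP to mP/lP (9.28%), from mP/lP to D (9.13%) and from D to RS (13.5%), and in none of these steps was another of the 10 genes higher. With a pseudocount of 5 Sun5 was under 1.5-fold in the first and the third of these steps. It was the gene called lower from diff. SpG to pL, with 13.7% of all genes lower and 4.27% higher. From RS to ES, Sun3, Sun5, Spag4 and Syne2 were lower and Lmnb2 higher, in a step where 31.9% of all genes were lower and 15.5% higher. Syne1 was lower from undiff. to diff. SpG (19.6%), Syne2 between eL/L/Z and L/Z/eP (3.37%, with 12.5% higher) and Lmnb2 from L/Z/eP to mP/lP (2.89%). With a pseudocount of 5 the last 2 calls, of Syne2 and Lmnb2, were lost, and that of Lmnb2 also when mitochondrial genes were kept in the scaling (log2 ratio -0.47). No gene of the 10 was called from pL to eL/L/Z, where 2.9% of all genes were higher and 2.29% lower, nor lower from mP/lP to D (1.5%) or from D to RS (2.49%).

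**Figure D3:**
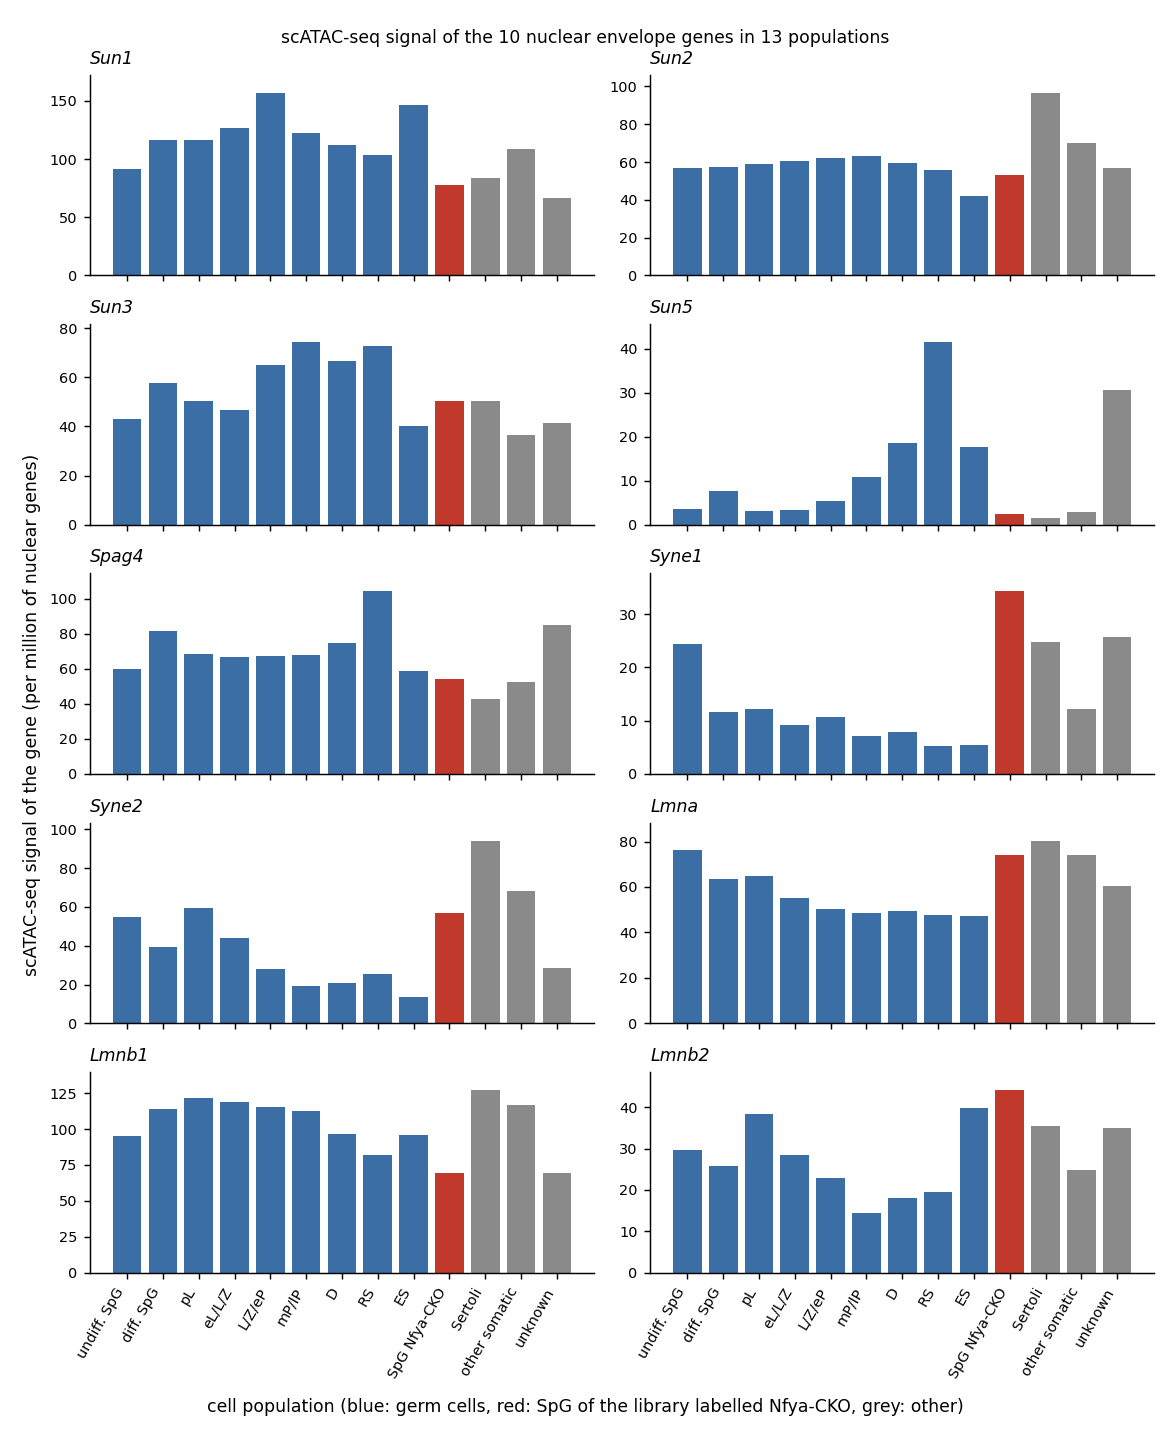
scATAC-seq signal of each of the 10 genes (y axis, scaled to 1000000 over nuclear genes, own scale per gene) in the 13 populations (x axis), 1 pooled value per bar and no error bars because replicates are lacking. The signal of Sun5 in RS (41.5) stood above all its other populations, while Sun2, Lmna and Lmnb1 were highest in Sertoli cells.

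Sun3, Sun5, Spag4 and Lmnb2 also had a second, smaller RNA peak in diff. SpG, against undiff. SpG and pL. Cre/+ cells were 84.5% of diff. SpG but 7.90% of undiff. SpG. Of the 1761 pL cells, 1045 came from 11 dpp, 672 from 17 dpp and 6 from Cre/+. Stage and library can therefore not be told apart in either step. From undiff. to diff. SpG, Sun1, Sun5, Spag4 and Lmnb2 were at least 2-fold higher (9.57% of all genes were) and Syne1 and Syne2 lower (6.28%). From diff. SpG to pL, Sun3, Sun5, Spag4 and Lmnb2 were lower, against 10.9% of all genes, and 0 of the 10 higher, against 1.27%. In diff. SpG the level was 21.3% of that in RS for Sun5, 20.1% for Spag4, 16.0% for Sun3 and 32.6% for Lmnb2. The spermatid markers Acrv1, an acrosomal protein gene, and Tssk1, a testis kinase gene, were at 16.5% and 30.4% of their RS level there. Prm1, Prm2, Tnp1 and Tnp2 lay between 28.9% and 38.4%. These shares overlapped with those of the 4 genes, and the part of RNA of spermatids in the diff. SpG values was not tested. With a pseudocount of 1, 0 of the 10 genes were called in either of these steps. Sun1 was at 132% of its RS level in diff. SpG, above all of these shares.

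**Figure D4:**
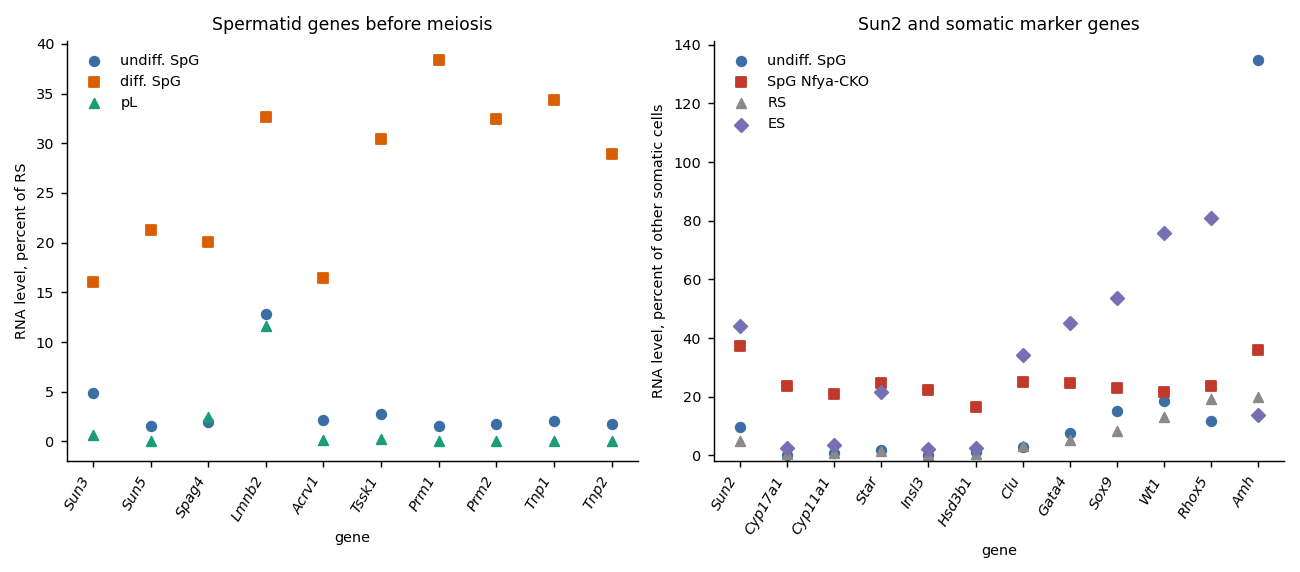
Left, RNA level in undiff. SpG, diff. SpG and pL as percent of the gene's level in RS, for Sun3, Sun5, Spag4, Lmnb2 and 6 spermatid markers. Right, RNA level in undiff. SpG, SpG Nfya-CKO, RS and ES as percent of the gene's level in other somatic cells, for Sun2, 5 Leydig and 6 Sertoli cell markers. Each point is 1 pooled value. In diff. SpG all 10 genes on the left lay between 16.0% and 38.4%, and in SpG Nfya-CKO the somatic markers lay between 16.4% and 24.9%, except Amh at 36.1%, with Sun2 at 37.5%.

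Sun1 and Sun2 are the SUN proteins of most cell types. Sun1 RNA was at 0.440 UMIs per 10000 in undiff. SpG, 1.24 in diff. SpG, 0.641 in pL, 0.695 in eL/L/Z, 0.562 in L/Z/eP, 0.906 in mP/lP, 0.811 in D, 0.935 in RS and 1.1 in ES, and 0.316 in Sertoli cells. It was detected at every stage of meiosis, and from pL on no step between neighbours reached 2-fold. Its scATAC-seq signal was highest in L/Z/eP, at 157, and lowest among germ cells in undiff. SpG, at 91.6.

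Sun2 RNA was low through meiosis. It was at 0.323 in undiff. SpG, 0.685 in diff. SpG, 0.328 in pL, 0.314 in eL/L/Z, 0.197 in L/Z/eP, 0.186 in mP/lP, 0.279 in D, 0.164 in RS and 1.48 in ES. Other somatic cells had the most, 3.37, and Sertoli cells had 0.724, below ES. From RS to ES the level was 9.03-fold higher, a log2 ratio of 2.58 on the scale of value + 0.1. The scATAC-seq signal did not move with it, at 55.7 in RS and 42.1 in ES. As a share of other somatic cells, Sun2 was at 4.88% in RS and 44.1% in ES, and the Sertoli cell markers in ES were at 34.3% (Clu), 45.3% (Gata4), 53.6% (Sox9), 75.7% (Wt1), 80.9% (Rhox5) and 13.6% (Amh, 20.0% in RS). The 5 Leydig cell markers summed to 0.786 in RS and 5.70 in ES. As a share of other somatic cells, Star was at 21.6% in ES. Cyp11a1 (3.50%), Hsd3b1 (2.66%), Cyp17a1 (2.6%) and Insl3 (2.15%) were lower there. The part of either set of markers in the higher level of Sun2 was not tested.

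Stretches before start sites of Sun2 and Lmna carry the CCAAT box. The Sun2 stretch, minus strand at chr15:79742537-79742686, holds it 85 and 41 bases before the start. The stretch before the start of the germ cell lamin C2, inside Lmna on the minus strand at chr3:88493313-88493462, holds a CCAAT 131 bases and a CNCCTCAG 32 bases before it, while the start of lamins A and C held no match.
Sun2: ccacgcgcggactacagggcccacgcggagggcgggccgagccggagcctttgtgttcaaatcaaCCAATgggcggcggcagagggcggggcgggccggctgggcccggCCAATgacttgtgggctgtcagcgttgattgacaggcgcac
Lmna C2: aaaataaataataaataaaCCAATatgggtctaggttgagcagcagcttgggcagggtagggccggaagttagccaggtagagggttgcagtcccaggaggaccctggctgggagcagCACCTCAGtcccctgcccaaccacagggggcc

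The nesprins, giant spectrin-repeat proteins that tie the envelope to actin and other filaments, differed in their levels in somatic cells. Syne2 RNA was at 5.55 in Sertoli cells and 3.32 in other somatic cells. Among germ cells it was 1.88 in undiff. SpG, 0.747 in diff. SpG, 0.721 in pL, 1.41 in eL/L/Z, 1.17 in L/Z/eP, 0.510 in mP/lP, 0.907 in D, 0.660 in RS and 2.59 in ES. It was the gene called lower from L/Z/eP to mP/lP, where 3.54% of all genes were lower and 1.38% higher. The call (log2 ratio -1.06) was lost with a pseudocount of 1 (-0.52) and after centring on the median of all genes, an alternative chosen after seeing the data. Its scATAC-seq signal was also highest in Sertoli cells (94.1), and among germ cells it was highest in pL (59.5) and lowest in ES (13.7), where the RNA was highest. The 6 Sertoli cell markers summed to 2.39 in mP/lP against 5.32 before it, in L/Z/eP, each of the 6 being lower, and to 3.84 in RS and 37.2 in ES. Their part in the levels of Syne2 at both steps was not tested.

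Syne1 RNA was at 0.541 in undiff. SpG, 0.208 in diff. SpG and 0.167 in pL, between 0.320 and 0.422 from eL/L/Z to D, 0.895 in RS and 0.530 in ES. Sertoli cells had 0.726, below RS but above undiff. SpG and ES. Other somatic cells, at 0.442, were below undiff. SpG, RS and ES. The scATAC-seq signal ran the other way in RS, with 5.31, the lowest of the 13 populations, against 24.5 in undiff. SpG (r = 0.04 with the RNA over 12 populations). Syne1 spans 530501 bp on chromosome 10, the longest of these genes, and over 24967 genes the scATAC-seq value rose with gene length (Spearman rho 0.32), so its level is not compared with that of shorter genes.

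The lamin genes differed in their course. Lmnb1, whose product underlies the envelope of most dividing cells, was at 1.41 in undiff. SpG, 0.908 in diff. SpG, 1.55 in pL, 0.978 in eL/L/Z, 0.591 in L/Z/eP, 0.798 in mP/lP, 0.493 in D, 0.264 in RS and 0.381 in ES. The level in RS was the lowest of all populations, and no single step reached 2-fold. Over the 12 named populations Lmnb1 ran opposite to Spag4 (r = -0.86), Sun5 (r = -0.85) and Sun3 (r = -0.84). Lmna stayed between 0.170 in pL and 0.252 in L/Z/eP across the germ cells, a range of 1.30-fold on the scale of value + 0.1, where the median of all genes was 2.98-fold and Sun5 spanned 41.4-fold. Its scATAC-seq signal was 76.1 in undiff. SpG and 47.4 in ES.

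In early meiosis the counts of the 10 genes were near those of all genes. Between pL and eL/L/Z, 0 were higher and 0 lower, against 4.41% and 0.59% of all genes, and between eL/L/Z and L/Z/eP only Sun3 was called, against 5.45% higher and 3.97% lower. A list of 25 known partners of these proteins (24 in the matrix, 22 above the filter) was also near the background in RNA at these steps, with 1 of 22 called at each. Ccdc155, the gene of KASH5, was the 1 of 22 called higher from pL to eL/L/Z (4.41% of all genes), and its level went from 0.253 in pL to 0.831 in eL/L/Z and 1.56 in L/Z/eP, with its highest value, 2.29, in mP/lP. Majin, which joins telomeres to the inner membrane, went from 1.04 in pL to 2.28 in mP/lP without a step of 2-fold. Of its partners, Terb1 went from 0.690 in pL to 1.93 in L/Z/eP without a call, while Terb2 was at 0.445 in pL and 0.514 in eL/L/Z, then 0.439 in L/Z/eP, with 0.403 in mP/lP.

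In RNA the partners gave few calls otherwise, apart from the step from undiff. to diff. SpG. From undiff. to diff. SpG, 5 of 22 were higher (Ccdc155, Terb1, Majin, Icmt, Nup210) and 0 lower, against 9.57% and 6.28% of all genes. From diff. SpG to pL 1 of 22, Ccdc155, was lower, against 10.9%. Dpy19l2, needed to attach the acrosome, was the 1 of 22 called higher in L/Z/eP (0.823) than in eL/L/Z (0.192), against 5.45% of all genes. Spata46, a spermatid envelope gene, was the 1 called higher from mP/lP to D (4.92% of all genes) and from D to RS (10.6%), where it reached 0.607, and the 1 called lower in ES (10%), at 0.193. Terb1 and Majin, 2 of 22, were lower from D to RS (3.34%), and Lemd2 and Banf1 higher from RS to ES (10.1%). In scATAC-seq, 4 of 24 partners were higher and 6 lower from RS to ES, against 15.5% and 31.9% of all genes, and 4 were higher and 1 lower from undiff. to diff. SpG, against 11.7% and 19.6%. No other step had more than 2 of 24 called. The median log2 RNA ratio of the partners from D to RS was -0.48, that of the 10 genes 0.56 and that of all genes -0.17.

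SpG of the library labelled Nfya-CKO were compared with undiff. SpG, of which 50% came from 11 dpp and 7.90% from Cre/+, so that age and genotype differ together and cannot be told apart. Of the 10 genes, 1 was at least 2-fold higher (Sun2) and 0 lower, against 4.09% and 3.08% of all genes. Sun2 went from 0.323 to 1.26, 3.91-fold, a log2 ratio of 1.69. Its scATAC-seq signal was 56.8 in undiff. SpG and 53.0 in SpG Nfya-CKO. As a share of other somatic cells, Sun2 was at 9.59% in undiff. SpG and 37.5% in SpG Nfya-CKO. The Leydig cell markers were between 0.0361% and 1.74% in undiff. SpG and between 16.4% and 24.6% in SpG Nfya-CKO, with Insl3 at 22.4% and Cyp17a1 at 23.7%. Of the 6 Sertoli cell markers, Clu went from 2.73% to 24.9%, Gata4 from 7.63% to 24.7%, Rhox5 from 11.7% to 23.7%, Sox9 from 15.0% to 23.1%, Wt1 from 18.5% to 21.6% and Amh from 135% down to 36.1%. The share of Sun2 was above those of all these Leydig and Sertoli cell markers in SpG Nfya-CKO. Some markers of endothelial cells and macrophages were above it, with Kdr at 61.4%, Pecam1 at 230%, Csf1r at 49.0%, C1qa at 47.2%, Cd68 at 72.8% and Adgre1 at 184%, at levels of at most 0.241 UMIs per 10000. The 3 peritubular markers were between 3.08% and 7.54%, and Cdh5 at 19.8%. The part of somatic RNA in its rise was not tested. With a pseudocount of 1 Sun2 was not called either, and against diff. SpG, where it was at 0.685, the ratio was below 2-fold.

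On the scale of value + 0.1 the other 9 genes stayed under 2-fold against undiff. SpG, but with a pseudocount of 0.01 Sun5 (-2.39) and Sun3 (-1.45) were past it. Against diff. SpG, of which 84.5% were Cre/+ cells, 4 genes were called in RNA: Sun3, Sun5 and Spag4 lower and Syne2 higher. In scATAC-seq 5 were called against diff. SpG: Sun5, Spag4 and Lmnb1 lower and Syne1 and Lmnb2 higher. The share of all genes was not taken with that control. On the scale of value + 0.1 the log2 ratios of Lmnb2 (0.69), Sun1 (0.56), Spag4 (0.46), Syne2 (0.34) and Lmna (0.15) were above 0 and those of Sun5 (-0.66), Lmnb1 (-0.56), Sun3 (-0.47) and Syne1 (-0.20) below. Sun5 was at 0.0639 in undiff. SpG and 0.00405, close to the level of 3 UMIs, in SpG Nfya-CKO, and Sun3 at 0.0613 and 0.0161. The 4 markers of elongating spermatids went the same way, summing to 0.511 and 0.103, and their part was not tested. Lmnb1 was at 1.41 and 0.925. In scATAC-seq 0 of the 10 genes were called against undiff. SpG, where 16.4% of all genes were higher and 4.23% lower. The log2 ratios ran from -0.45 for Lmnb1 to 0.56 for Lmnb2, just under the threshold of 1.5-fold. Mean TSS enrichment per cell, the signal at start sites over that of flanks, was 8.00 in SpG Nfya-CKO and 12.7 in undiff. SpG. No partner gene was called in either assay against undiff. SpG.

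**Figure D5:**
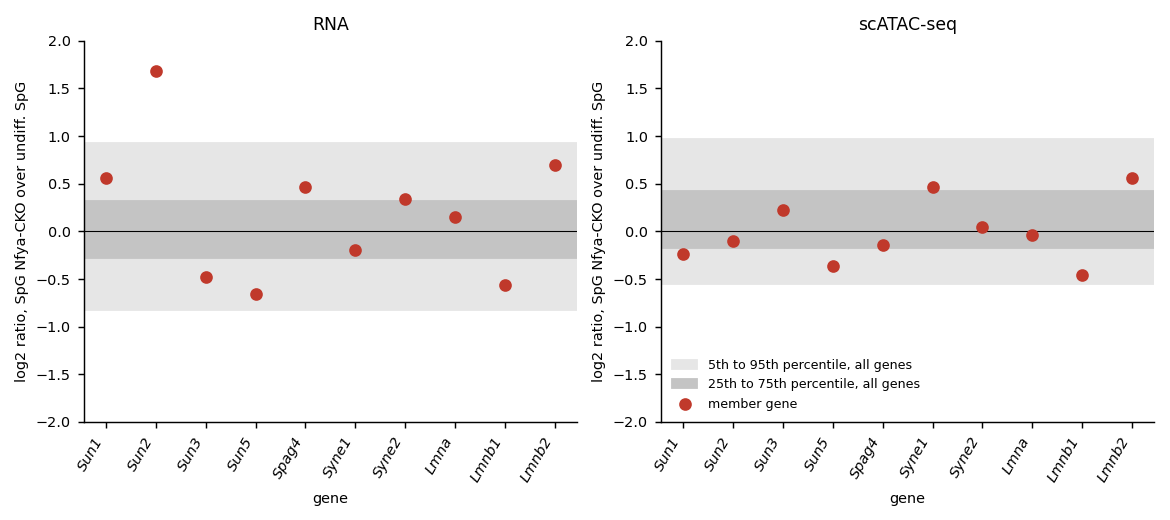
Log2 ratio of SpG of the library labelled Nfya-CKO over undiff. SpG for each of the 10 genes (points) in RNA (left, value + 0.1) and scATAC-seq (right, value + 1), with the middle 50% and the middle 90% of all genes as dark and light grey bands. Each ratio is of 2 pooled values without replicates. Sun2 RNA (1.69) is the only point outside the light band.

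The genes most like each of the 10 by Pearson's r of log2(value + 0.1) over the 12 named populations were found among 10858 genes that reached 0.5 somewhere. For Sun5 they were Krt88 (r = 0.999) and Pdilt (0.998), for Sun3 Ssmem1 and 4930590J08Rik (both 0.996), for Spag4 Tmem191c and Antxrl (both 0.99), and for Lmnb2 Plekha6 and Pabpc1l (both 0.98). For Lmnb1 they were Smg8 (0.99) and Ddx6 (0.98), for Syne2 Arhgap31 (0.99) and Tbc1d8 (0.98), for Sun2 Pxn (0.97) and Rit1 (0.96), for Lmna Slc1a3 (0.94) and Ebf1 (0.93), for Sun1 Agfg1 (0.92) and Rfc2 (0.91), and for Syne1 Irf2 and Srpk2 (both 0.89). Likeness by Pearson's r was closest for Sun3 and Sun5 and weakest for Sun1 and Syne1. The names depended on the measure: with Spearman's rho, 1 of the 2 was kept for Syne2, Lmnb1 and Lmnb2 each, and 0 for the other genes.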

How the data were processed

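The authors aligned scRNA-seq reads with STAR 2.7.10b and scATAC-seq fragments with BWA 0.7.12 to mm10, collapsed UMIs, and filtered cells with Seurat 5.2.1 (a minimum of 500 genes, mitochondrial UMIs below 5%) and ArchR 1.0.3 (1000 fragments, TSS enrichment of 4), leaving out doublets. They deposited per cell the count of UMIs or fragments, not normalized, with library and population. The mitochondrial percent per cell and TSS enrichment, a ratio, are also the authors' values. The authors deposited 1 gene matrix per assay as the natural log of 1 plus a pooled mean that sums to 10000 per population, as found from the values. RNA values times UMI totals were not whole, so counts, and intervals from them, could not be recovered. 20 columns of the cell tables were not used.

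Values were turned back with exp(value) - 1 in Python 3.11.15 with numpy 2.4.6 and pandas 2.3.3, and drawn with matplotlib 3.10.9. scATAC-seq values were rescaled to 1000000 without the 13 mitochondrial genes, which held 31.2% to 64.4% of the signal. RNA was called at 2-fold with a pseudocount of 0.1 and scATAC-seq at 1.5-fold with a pseudocount of 1, by size alone. The text names all 10 genes, the 2 genes most like each, partners called in a described comparison, markers where a result turns on them, and Nfya. Majin, Terb1 and Terb2 levels during meiosis were chosen after their values were seen. The genes and lists were chosen with earlier results of these data known. Alternatives covered pseudocounts, filters, thresholds, scaling and the control population. A planned comparison of protein sequences was not run here. Samples carry 1 library per group, and populations pool libraries.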

Additional observations from a re-analysis of the deposited data

How the results depend on the processing

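No paired analysis was possible because each group is 1 library and no test was run. Counts of the 10 genes called by size depended on the pseudocount, since many levels lie near it. Shares of all genes were taken at the main settings only. The counts under alternatives therefore have no share beside them, and show only how the calls moved. With 1 in place of 0.1 for RNA, the counts of genes called in either direction fell from 6 to 0 for undiff. to diff. SpG, from 4 to 0 for diff. SpG to pL, from 1 to 0 for eL/L/Z to L/Z/eP, from 1 to 0 for L/Z/eP to mP/lP, from 3 to 0 for mP/lP to D, from 5 to 2 for RS to ES and from 1 to 0 for SpG Nfya-CKO. With 0.01 the counts were 2 for pL to eL/L/Z (0 with 0.1), 3 for eL/L/Z to L/Z/eP, 5 for D to RS (3 with 0.1) and 3 for SpG Nfya-CKO. Against diff. SpG as the control, SpG Nfya-CKO gave 4 calls. With undiff. SpG kept as the control, a threshold of 1.5-fold gave 3. For scATAC-seq, a pseudocount of 5 gave 1 call for undiff. to diff. SpG (2 with a pseudocount of 1), 0 for eL/L/Z to L/Z/eP (1), 1 for L/Z/eP to mP/lP (2) and 0 for mP/lP to D (1). No pseudocount gave 2 for diff. SpG to pL (1) and 2 for eL/L/Z to L/Z/eP (1). Scaling with mitochondrial genes gave 3 for diff. SpG to pL, 3 for pL to eL/L/Z (0), 4 for eL/L/Z to L/Z/eP, 1 for L/Z/eP to mP/lP, 2 for mP/lP to D and 2 for D to RS (1). SpG Nfya-CKO gave 5 scATAC-seq calls against diff. SpG and 4 at a lower fold threshold, against 0. Chosen after seeing the data, undiff. SpG set against pL gave 2 RNA calls in place of 4, and centring on the median of all genes gave 0 for L/Z/eP to mP/lP and 5 for D to RS. The other 38 counts under alternatives lay within 1.5-fold of the reported one, those without the filter on low values included. No log2 ratio of a called gene changed sign with the other RNA pseudocounts or with mitochondrial genes in the scATAC-seq scaling, and signs of single genes were not compared under the other settings. Spag4 in SpG Nfya-CKO (0.175) was far below diff. SpG (1.04) but not below undiff. SpG. With Spearman's rho in place of Pearson's r, 1 of the 2 genes most like Syne2, Lmnb1 and Lmnb2 was kept each, and 0 of those of the other genes. The cause of these changes was not tested beyond what each setting alters by construction. Without replicates, depth limits levels near 3 UMIs, such as Sun5 in pL.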

Other observations

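The 99 cells that the study leaves without a type came from all 5 libraries, 38 of them from Cre/+, and 40 carried a barcode shared between libraries. Lmna was at 1.47 UMIs per 10000 in them, 3.44-fold its level in other somatic cells, the next population. Syne1 was at 1.12, also above all other populations, and Sun2 at 1.28. The endothelial markers Pecam1, Cdh5 and Kdr summed to 18.1 there and to 0.754 in other somatic cells. Sun5 (0.564), Spag4 (0.753) and the 4 markers of elongating spermatids (a sum of 6.71) were detected as well, and the scATAC-seq signal of Sun5 was 30.5 in 54 cells, second to RS. A level of 0.0640 in this population corresponds to 3 UMIs.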
